A study of Mus musculus with 4 samples.

Results

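The 9 genes described here encode replication-independent histone variants: the H3.3 genes H3f3a and H3f3b, the H2A.Z genes H2afz and H2afv, the H2A.X gene H2afx, the H2A.J gene H2afj, the macroH2A genes H2afy and H2afy2, and the linker histone gene H1f0. They were taken by symbol from a table of 52189 genes, and each symbol matched 1 entry. The data come from RNA immunoprecipitation and sequencing (RIP-seq) in AML12 cells, a mouse hepatocyte line derived from an animal transgenic for human transforming growth factor alpha. All libraries came from the same unmodified line, grown in serum with an insulin, transferrin and selenium supplement and dexamethasone, crosslinked with ultraviolet light and lysed as nuclei. The 2 groups differ only in the antibody used on the lysate: SAFB RIP (2 libraries) used an antibody that recognizes SAFB, scaffold attachment factor B, which binds RNA as well as DNA in the nuclear matrix, and IgG RIP (2 libraries) used control immunoglobulin. The comparison addresses which nuclear RNAs are associated with SAFB.

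Most histone protein is made during DNA synthesis from clustered, intronless genes. Their mRNAs end in a conserved stem-loop, bound by the protein SLBP, in place of a poly(A) tail. Variant histones are typically made throughout the cell cycle from genes that lie outside the clusters and give polyadenylated mRNAs. They replace the canonical proteins at particular sites. H3.3 marks active genes as well as telomeres and pericentromeric repeats, H2A.Z flanks promoters, H2A.X is phosphorylated around DNA breaks, macroH2A carries a large extra domain and is enriched on the inactive X chromosome, and H1.0 accumulates in non-dividing cells.

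The difference between the clustered and the variant genes can be read in the mRNA itself, so the histone stem-loop was searched on the sense strand of every annotated transcript. It was found in 1 of the 9 variant genes, in 46 of 67 replication-dependent genes (68.7%) and in 5 of 11889 other protein-coding genes tested (0.0421%). The search used a fixed pattern and could find only a stem-loop inside the annotated transcript. Some replication-dependent genes without a match have short annotated transcripts, such as Hist1h4k (312 bases) and Hist1h3h (411 bases). A miss therefore does not show that a gene lacks a stem-loop. The variant gene with a match was H2afx, whose stem-loop (chr9:44335240-44335255, plus strand, mm10) starts 46 bases after the stop codon and lies 822 bases before the end of the annotated transcript. H2afx thus carries a feature of the replication-dependent genes, and how its mRNA ends in these cells was not tested. The H2afx stem-loop is shown beside that of the clustered linker histone gene Hist1h1e (chr13:23621782-23621797, minus strand). The Hist1h1e stem-loop starts 40 bases after the stop codon and lies 1153 bases before the end of the annotated transcript. Capitals mark the stem-loop and lower case the neighbouring bases.
H2afx: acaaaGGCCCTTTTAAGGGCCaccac
Hist1h1e: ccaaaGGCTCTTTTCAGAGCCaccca

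The H3.3 pair and the H2A.Z pair each encode the same or nearly the same protein from diverged mRNAs, which bears on how well their reads can be told apart. The macroH2A pair, H2afy and H2afy2, is 66.9% identical in protein and is not shown. H3f3a and H3f3b encode the same 136 residues, although 95 of their 411 coding bases differ. H2afz and H2afv differ at 3 of 128 residues and at 81 of 387 coding bases. By the same measure H3f3b and Hist1h3e, the clustered H3 gene with the highest mean level, differ at 4 of 136 residues. The first 90 coding bases of each pair are shown, with capitals at the positions that differ: 20 in the H3.3 pair and 19 in the H2A.Z pair. The H3.3 stretches lie in 1 exon each (H3f3a, chr1:180811837-180811926, minus strand; H3f3b, chr11:116023920-116024009, minus strand). Those of H2afz (between 137864694 and 137865528 on chromosome 3, plus strand) and H2afv (between 6433829 and 6444339 on chromosome 11, minus strand) are spliced from 3 exons.
H3f3a: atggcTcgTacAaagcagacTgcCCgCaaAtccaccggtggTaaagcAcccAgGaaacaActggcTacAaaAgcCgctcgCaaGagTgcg
H3f3b: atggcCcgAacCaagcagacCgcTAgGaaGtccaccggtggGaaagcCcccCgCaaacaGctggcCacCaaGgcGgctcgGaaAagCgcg
H2afz: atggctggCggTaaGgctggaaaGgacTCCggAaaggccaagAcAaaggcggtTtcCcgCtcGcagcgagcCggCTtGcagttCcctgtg
H2afv: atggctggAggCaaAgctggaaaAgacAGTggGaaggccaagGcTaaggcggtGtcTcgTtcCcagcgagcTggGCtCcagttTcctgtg

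The values are TPM, shares of a library corrected for transcript length, and the read depth is unknown. A higher share of a library therefore cannot be told apart from more RNA brought down by the antibody. Protein-coding genes held 677784 to 679488 TPM in the IgG RIP and 835544 to 835943 in the SAFB RIP, and over the 16647 genes tested the log2 fold change of SAFB RIP over IgG RIP had a median of 0.46. Safb, the gene of the protein pulled down, stood at 169.8 and 161 TPM in the IgG libraries and at 988 and 880.1 TPM in the SAFB libraries. The variant genes are therefore also described after centring every library on its median gene. All 10 hepatocyte markers were above the test's minimum, at summed levels of 9005 to 9014 TPM in the IgG RIP and 11350 to 11518 in the SAFB RIP. Endothelial and stellate or fibroblast marker sets each summed to at most 0.77 TPM, with Cdh5, Pdgfrb and Dcn at 0 throughout. The leukocyte set summed to 12.7 and 6.31 TPM in the IgG libraries and to 32.0 and 21.7 TPM in the SAFB libraries, nearly all of it Cd68, which did not pass at a log2 fold change of 1.43 (limma, Benjamini-Hochberg adjusted p = 0.0562), while Adgre1 was at 0; its part in the results was not tested. The cholangiocyte set summed to 1265 and 910 TPM in the IgG libraries and to 870 and 900 TPM in the SAFB libraries. It came from the keratin genes Krt7 and Krt19 and from Sox9, with Epcam at or near 0. Of 3 genes of this set tested, 2 were called lower as deposited (8.3% of all genes tested). The part of the cholangiocyte set in the results was not tested. Whether replicates are separate cultures is not stated in the labels, so p-values measure only the spread between these libraries.

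Of the 9 variant genes, 8 were tested, and each of these had at least 28 TPM in every library, so the minimum level did not select them by group. H1f0 and H2afy rose in the SAFB RIP, H3f3b fell, and H2afj, H3f3a, H2afx, H2afv and H2afz did not pass (limma, Benjamini-Hochberg adjusted over all genes tested). Of all genes tested, 29.8% were called higher and 8.3% lower, and of protein-coding genes tested 28.3% and 10.1%. For 2 variant genes each SAFB library was above each IgG library (52.3% of all genes tested), and for 5 each was below (21.4% of all genes tested). The median log2 fold change of the 8 was -0.47, against 0.46 for all genes and 0.34 for protein-coding genes tested. After median centring, 1 variant gene was higher and 5 were lower, against 16.4% and 17.6% of all genes. The same counts of 1 and 5 came with quantile normalization, against 16.6% and 17.9%, and with protein-coding genes alone, against 21.5% and 19.2%. With the trend of log2 level on transcript GC content removed in each library, 3 were higher and 3 lower, against 27.9% and 4.61%. The 3 higher were H1f0 (1.08), H2afj (0.69) and H2afy (0.46), and the 3 lower were H3f3b (-1.16), H2afv (-0.93) and H3f3a (-0.64). The calls of H1f0 and H3f3b as deposited held with median centring, quantile normalization and protein-coding genes alone, and with the GC trend removed. That of H2afy was lost under each of these 3 scalings and held with the GC trend removed (limma, adjusted p = 0.0255). With SAFB RIP replicate 1 left out, the log2 fold change was 0.89 for H1f0, 0.49 for H2afy and -0.89 for H3f3b. Without SAFB RIP replicate 2 the values were 0.97, 0.38 and -0.74. Without IgG RIP replicate 1 they were 0.95, 0.51 and -0.81, and without IgG RIP replicate 2 they were 0.92, 0.36 and -0.83. A fit without a SAFB library takes its spread from the IgG libraries alone, which differed more between replicates, so only fold changes are given here.

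**Figure D1:**
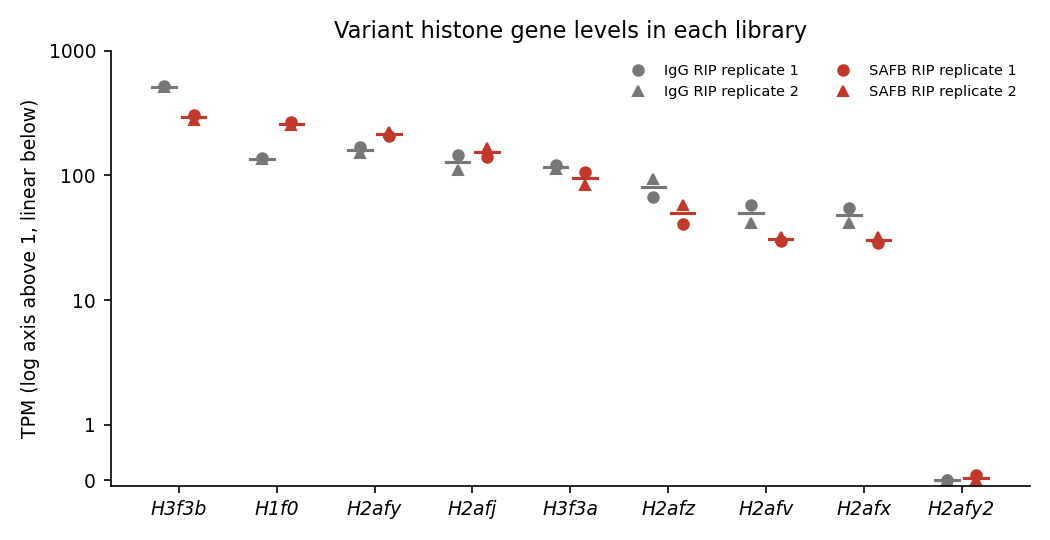
TPM of each variant histone gene (horizontal axis, ordered by mean level) in each library, with circles for replicate 1, triangles for replicate 2 and a line at each group mean; the vertical axis is logarithmic above 1 TPM. H3f3b stands at 509.8 to 518 TPM in the IgG RIP and 277 to 307 in the SAFB RIP, H1f0 moves the other way, and H2afy2 is at or near 0.

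The H3.3 genes were lower in the SAFB RIP or did not pass. H3f3b (chromosome 11, 116021912 to 116027962, minus strand), the more abundant H3.3 gene here, stood at 518 and 509.8 TPM in the IgG libraries and at 307 and 277 TPM in the SAFB libraries. The groups did not overlap, and replicates lay close together. H3f3b fell from 514 ± 5.57 to 292 ± 21.2 TPM (SD, n = 2), for a log2 fold change of -0.82 ± 0.10 (SE; limma, Benjamini-Hochberg adjusted p = 0.00867), and of -1.28 ± 0.12 after median centring (limma, adjusted p = 0.00513). Only 8.22% of all genes tested had a lower fold change.

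H3f3a (chromosome 1, 180800832 to 180813943, minus strand) encodes the same protein. It stood at 122 and 112 TPM in the IgG libraries and at 107 and 84.3 TPM in the SAFB libraries. The SAFB libraries were the lower ones, but the gap to the nearest IgG library was smaller than the spread within the SAFB pair. Its log2 fold change of -0.30 ± 0.15 (SE) did not pass (limma, Benjamini-Hochberg adjusted p = 0.196), whereas it passed as lower after median centring, at -0.76 ± 0.17 (limma, adjusted p = 0.0283). H3f3aos, an antisense gene that overlaps H3f3a by 168 bases, stood at 9.95 and 13.4 TPM in the IgG libraries and at 17.0 and 18.9 TPM in the SAFB libraries, and without knowledge of strand use in counting the values of both genes are uncertain. In addition, 16 annotated pseudogenes match at least 200 coding bases of H3f3a at 95% identity or more, with summed levels of 1.85 to 3.86 TPM.

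Within the H3.3 pair, H3f3b took 81.0% and 82.0% of the summed TPM in the IgG libraries and 74.1% and 76.7% in the SAFB libraries. The share of H3f3b was thus lower in both SAFB libraries. With 2 libraries a group no permutation of the labels could bring p under the threshold of 0.05, so these shares are given as values.

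The H2A.Z genes had lower values in the SAFB RIP and did not pass as deposited. H2afz (chromosome 3, 137864487 to 137866922, plus strand) stood at 67.2 and 93.5 TPM in the IgG libraries and at 40.9 and 58.4 TPM in the SAFB libraries. Its replicates were far apart in each group, and the groups did not overlap. The log2 fold change was -0.69 ± 0.26 (SE; limma, Benjamini-Hochberg adjusted p = 0.0986), and -1.15 ± 0.23 after median centring, where it passed (limma, adjusted p = 0.022). H2afz shares a near-identical stretch with 4 other annotated genes, 2 of them pseudogenes, so its value is uncertain. These 4 genes, of which Tmcc1 has the highest level, summed to 68.2 and 50.4 TPM in the IgG libraries and to 147 and 152 TPM in the SAFB libraries. They were thus higher where H2afz was lower, and the part of shared reads in the H2afz values was not tested.

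H2afv (chromosome 11, 6427229 to 6444443, minus strand) stood at 58.1 and 41.4 TPM in the IgG libraries and at 29.7 and 31.9 TPM in the SAFB libraries. Here the IgG libraries were the more variable pair, and both lay above the SAFB libraries. The log2 fold change of -0.66 ± 0.21 (SE) did not pass (limma, Benjamini-Hochberg adjusted p = 0.0727) and passed after median centring, at -1.12 ± 0.23 (limma, adjusted p = 0.0235). The share of H2afv in the H2A.Z pair was 46.4% and 30.7% in the IgG libraries and 42.1% and 35.3% in the SAFB libraries. These ranges overlapped, and no difference in the share was seen beyond the spread between replicates.

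H2afx (chromosome 9, 44334694 to 44336077, plus strand), the variant gene with a stem-loop, stood at 54.8 and 41.8 TPM in the IgG libraries and at 28.5 and 31.8 TPM in the SAFB libraries. Both SAFB libraries were below both IgG libraries. Its log2 fold change of -0.65 ± 0.20 (SE) did not pass (limma, Benjamini-Hochberg adjusted p = 0.0603). It passed after median centring, at -1.11 ± 0.21 (limma, adjusted p = 0.0193), but turned to 0.16 once a trend with transcript GC content was removed (limma, adjusted p = 0.446). The H2afx transcript is 62.3% GC, against a median of 49.7% for protein-coding genes tested. The direction of H2afx thus depends on whether a GC trend is removed.

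H2afj (chromosome 6, 136808244 to 136810074, plus strand) encodes an H2A variant described in senescent cells. It lies near the replication-dependent gene Hist4h4, whose stem-loop is at chr6:136803998-136804013 (minus strand). H2afj stood at 146 and 111 TPM in the IgG libraries and at 140.2 and 166 TPM in the SAFB libraries. This was the tested variant gene whose groups overlapped. The log2 fold change of 0.26 ± 0.18 (SE) did not pass (limma, Benjamini-Hochberg adjusted p = 0.307), stood at -0.20 after median centring, and was called higher once the GC trend was removed, at 0.69 (limma, adjusted p = 0.0227).

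H2afy (chromosome 13, 56073619 to 56136361, minus strand), the macroH2A1 gene, stood at 168 and 152 TPM in the IgG libraries and at 208 and 225 TPM in the SAFB libraries. The groups did not overlap. H2afy had a mean of 160 ± 11.5 TPM in the IgG RIP and rose to 216 ± 11.8 TPM in the SAFB RIP (SD, n = 2), with a log2 fold change of 0.44 ± 0.11 (SE; limma, Benjamini-Hochberg adjusted p = 0.0372). This is close to the median of all genes, since 49.2% of genes tested had a lower value, and after median centring H2afy stood at -0.02 ± 0.13 (limma, adjusted p = 0.897). H2afy2 (chromosome 10, 61738665 to 61784147, minus strand), the macroH2A2 gene, was listed at 0 in both IgG libraries and in SAFB RIP replicate 2, and at 0.0877 TPM in SAFB RIP replicate 1. It was not tested.

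H1f0 (chromosome 15, 79028450 to 79030504, plus strand) encodes the linker histone H1.0, which binds DNA where it enters and leaves the nucleosome. It stood at 137 and 134 TPM in the IgG libraries and at 267 and 252 TPM in the SAFB libraries. The groups were far apart and the replicates close. H1f0 had a mean of 136 ± 1.70 TPM in the IgG RIP and rose to 259.8 ± 10.6 TPM in the SAFB RIP (SD, n = 2), with a log2 fold change of 0.93 ± 0.09 (SE; limma, Benjamini-Hochberg adjusted p = 0.0064). It remained higher after median centring, at 0.47 ± 0.11 (limma, adjusted p = 0.0306), and 66.5% of all genes tested had a lower fold change.

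**Figure D2:**
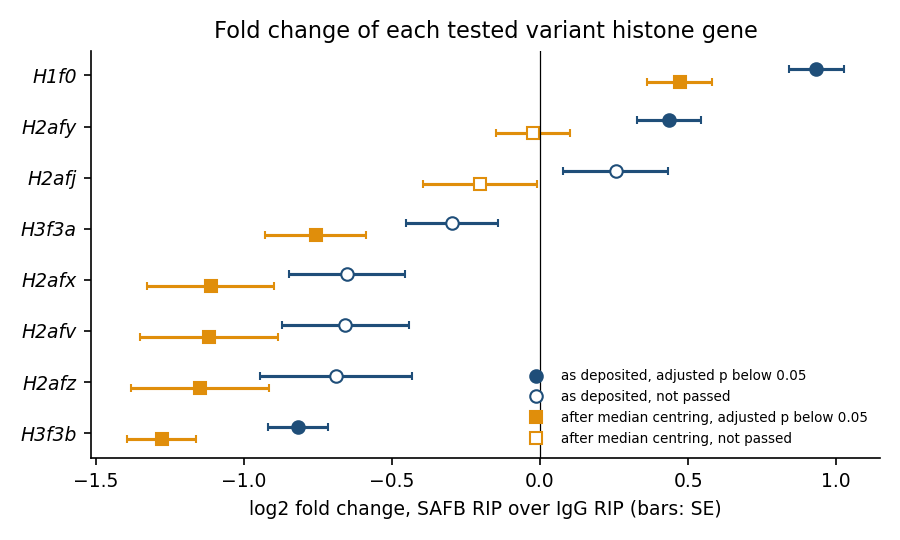
Log2 fold change of SAFB RIP over IgG RIP (horizontal axis) for the 8 tested variant genes, with circles for the values as deposited, squares for those after median centring, filled symbols for an adjusted p below 0.05 and bars for the SE. H1f0 is above 0 and H3f3b below 0 on both scales, while H2afy and H2afj change side of 0.

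The make-up of the summed variant mRNA differed between the groups. The 9 genes summed to 1270 and 1196 TPM in the IgG libraries and to 1128 and 1126 TPM in the SAFB libraries. H3f3b took 40.8% and 42.6% of this sum in the IgG libraries and 27.2% and 24.6% in the SAFB libraries. H1f0 took 10.8% and 11.2% in the IgG libraries and 23.7% and 22.4% in the SAFB libraries. H2afy took 13.2% and 12.7%, then 18.4% and 19.96%. In order of mean level the genes ran H3f3b, H1f0, H2afy, H2afj, H3f3a, H2afz, H2afv and H2afx, and the neighbours H1f0 and H2afy changed places between the groups. H2afv and H2afx did not differ beyond their spread in either group, and H2afj overlapped H1f0 and H3f3a next to it in the IgG RIP.

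**Figure D3:**
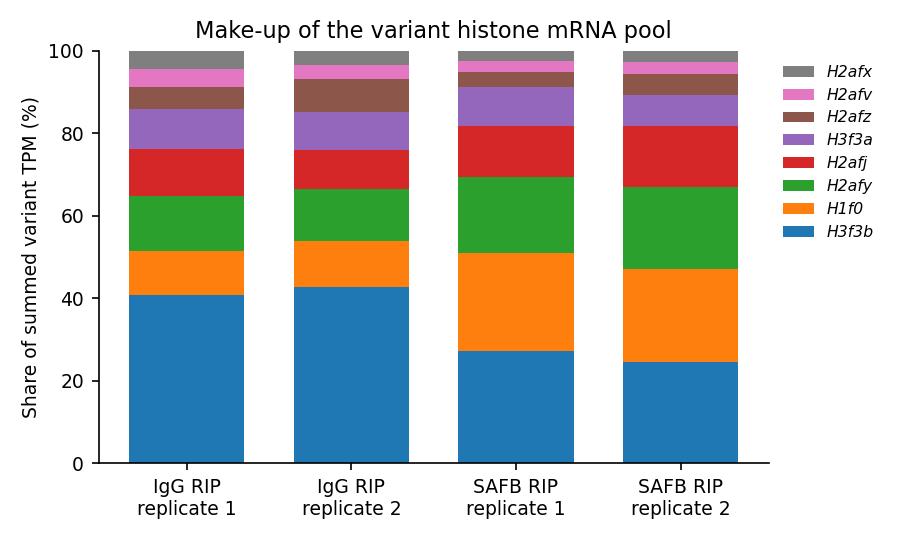
Share of the summed TPM of the variant genes taken by each gene (stacked bars, percent) in each of the 4 libraries; H2afy2, at or near 0, is not drawn. The H3f3b share is 40.8% and 42.6% in the IgG RIP and 27.2% and 24.6% in the SAFB RIP, and the H1f0 share is 10.8% and 11.2%, then 23.7% and 22.4%.

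The genes differ in structure. H2afx, H2afj and H1f0 have a longest annotated transcript of 1 exon, as do 6.2% of protein-coding genes tested, and the other 6 have 4 to 9 exons. For H2afy the longest transcript, of 4 exons, is annotated as a retained intron. The single-exon genes stood at -0.65, 0.26 and 0.93, so they did not share a direction. GC content ran from 43.2% in H3f3a and 43.4% in H3f3b to 62.3% in H2afx.

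The replication-dependent genes of the clusters served as the contrast. Of 67, 64 were tested, of which 5 were higher and 13 lower (29.8% and 8.3% of all genes), with a median log2 fold change of -0.13. After median centring 1 was higher and 22 were lower (16.4% and 17.6% of all genes), with a median of -0.59. Once the GC trend was removed 16 were higher and 9 lower (27.9% and 4.61% of all genes), with a median of 0.32, so their balance of directions depends on that step. With a trend on transcript length removed instead, 4 were higher and 25 lower, beside 4647 and 1120 of all genes. Clustered genes of a class can be similar in sequence, to a degree that was not measured here and may differ between classes. The authors' counting could split reads between similar genes, so single values are uncertain. The variant genes made up 20.0% and 21.6% of the summed TPM of both sets in the IgG libraries and 22.2% and 22.3% in the SAFB libraries.

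Arranged by histone class, the clustered H1 genes lay on the same side as H1f0 and most clustered H3 genes on the same side as the H3.3 genes. In all 6 clustered H1 genes the groups did not overlap and the SAFB RIP was higher (52.3% of all genes tested). Of these, 4 were called higher (29.8% of all genes), and the median of the 6 was 0.96 (0.50 after median centring). The 4 were Hist1h1e, which rose by 1.47 ± 0.31 (SE), Hist1h1b by 1.25 ± 0.18, Hist1h1a by 0.76 ± 0.12 and Hist1h1c by 0.52 ± 0.14, of which only Hist1h1b passed after median centring, at 0.79. Of 11 clustered H3 genes tested, 5 were lower and 0 higher in limma (6 and 0 at an unadjusted p under 0.05), against 8.3% and 29.8% of all genes. Their median was -0.59 (-1.05 after median centring). With the GC trend removed 2 were lower and 0 higher in limma, against 4.61% and 27.9% of all genes, with a median of 0.01. Of 13 clustered H4 genes, a class without a variant gene here, 8 were lower and 0 higher (11 and 0 unadjusted), against the same shares of all genes. Their median was -1.12. With the GC trend removed 7 were lower and 1 higher, with a median of -0.95.

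Few clustered H2A and H2B genes passed as deposited, where 29.8% of all genes were called higher and 8.3% lower. Of 16 clustered H2A genes tested, 0 passed in either direction in limma (1 higher and 1 lower at an unadjusted p under 0.05), with a median of 0.13 (-0.33 after median centring), between the H2A variants H2afj and H2afy above and H2afx, H2afv and H2afz below. Of 18 clustered H2B genes 1 passed, Hist2h2be, which rose from 2.63 ± 1.18 to 8.29 ± 0.58 TPM (SD, n = 2; limma, Benjamini-Hochberg adjusted p = 0.0491). That call was lost after median centring (limma, adjusted p = 0.119), quantile normalization (0.185) and GC trend removal (0.0900), among other choices. With the GC trend removed 7 H2A genes and 4 H2B genes were higher and 0 lower (27.9% and 4.61% of all genes), with medians of 0.64 and 0.36. Of the 4 most abundant genes of the clusters, Hist1h1e rose, as above, and the others did not pass: Hist2h2bb stood at -0.21 ± 0.22 (SE), Hist1h4n at -0.70 ± 0.20 and Hist2h2ac at 0.54 ± 0.17. Hist1h4h, next in level and named after its values were seen, had the lowest fold change of the clustered genes tested and fell from 302 ± 17.3 to 58.6 ± 6.30 TPM (SD, n = 2). The resemblance between variant and clustered genes of a class is a description, and no test of it was made.

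**Figure D4:**
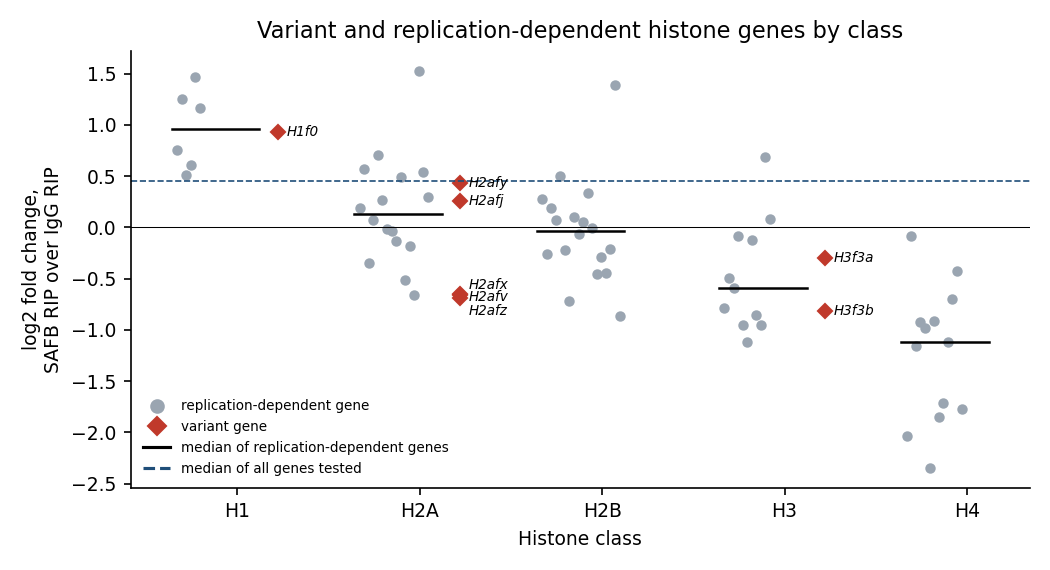
Log2 fold change of SAFB RIP over IgG RIP (vertical axis) for each tested histone gene by class (horizontal axis), with grey circles for replication-dependent genes, red diamonds for variant genes, black lines at the median of the replication-dependent genes of a class and a dashed line at the median of all genes tested. The class medians run from 0.96 in H1 to -1.12 in H4, with H1f0 beside the H1 genes and H3f3a and H3f3b among the H3 genes.

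Of 28 other replication-independent histone genes looked up, 16 were listed at 0 in all libraries and 4 were tested. Cenpa, the centromeric H3 variant gene, stood at 20.9 and 20.96 TPM in the IgG libraries and at 20.9 and 14.3 TPM in the SAFB libraries, and did not pass at -0.26 ± 0.27 (SE). H2al1m, of a family of H2A-like genes known from the testis, stood at 2.10 and 0 TPM in the IgG libraries and at 47.9 and 42.7 TPM in the SAFB libraries. H2al1k was listed at 0 in both IgG libraries and at 2.27 and 4.09 TPM in the SAFB libraries. Both reached the minimum level only through the SAFB libraries, so their calls are not counted as results, and H2al3 did not pass. Members of this family can be similar in sequence, to a degree that was not measured here, so the single values are uncertain.

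Genes of histone deposition, exchange, chaperone and mRNA processing factors were described by list, and not all of them act on the variants. Their counts stand beside 29.8% of all genes higher and 8.3% lower as deposited, and 16.4% and 17.6% after median centring. Of 8 H3.3 deposition factors, 4 rose and 0 fell in limma (4 and 0 at an unadjusted p under 0.05), with a median of 1.12 (4 and 1 after median centring). Atrx, which encodes the remodeller that works with DAXX, rose by 2.12 ± 0.09 (SE; 1.66 after median centring), and Ubn2, of the HIRA complex, rose from 68.4 ± 1.99 to 199 ± 0.554 TPM (SD, n = 2), by 1.53 ± 0.10 (1.07 after median centring). Hira itself stood at 0.10 ± 0.11 and Cabin1 at -0.28 ± 0.18, and neither passed. The gene for the H3.3 chaperone DAXX was among those that did not pass.

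Of 12 H2A.Z exchange factors, 5 rose and 2 fell, with a median of 0.50 (2 and 2 after median centring). The ATPase genes Srcap (0.63 ± 0.29, SE) and Ep400 (0.37 ± 0.11) did not pass. Ruvbl1 rose by 1.43 ± 0.23, while its partner in the same helicase complex, Ruvbl2, fell (-0.68 ± 0.18), as did Vps72, an H2A.Z-binding subunit gene (-0.62 ± 0.14). Ruvbl2 stood at 0.07 once the GC trend was removed.

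Of 13 other histone chaperone genes matched, 7 rose and 0 fell in limma (8 and 1 at an unadjusted p under 0.05), with a median of 0.84 (6 and 1 after median centring). Set rose by 1.85 ± 0.11 (SE), Npm1, the nucleophosmin gene, by 1.47 ± 0.11, Ssrp1, of the FACT complex, by 1.29 ± 0.15 and Supt6 by 0.97 ± 0.10. A list of 7 genes held Npat and factors that process the ends of replication-dependent histone mRNAs. Of these 7, 6 were tested and 3 rose, Npat among them, with a median of 0.86 (2 after median centring). Npat, a coactivator of the clustered genes, rose from 14.7 ± 0.0366 to 43.3 ± 3.46 TPM (SD, n = 2) and Eri1 by 1.25 ± 0.24 on the log2 scale (SE). The Eri1 call was lost after median centring, at 0.79 (limma, Benjamini-Hochberg adjusted p = 0.0661), and after quantile normalization (limma, adjusted p = 0.0673). Slbp stood at -0.34 ± 0.22 and Lsm10 at 0.30 ± 0.30, and neither passed. Over the 39 tested genes of these 4 lists 19 rose and 2 fell (14 and 4 after median centring), set beside 29.8% and 8.3% of all genes (16.4% and 17.6%).

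The protein-coding genes whose profile over the 4 libraries lay nearest to that of H3f3b were Dpp7, Rfk and Cox5a. The measure was the Euclidean distance between log2 values centred over the libraries, among 10433 genes with a mean of at least 5 TPM. The distances were 0.0363 for Dpp7, 0.0486 for Rfk and 0.0598 for Cox5a. Their log2 fold changes were -0.80, -0.85 and -0.81. With only 4 libraries many genes lie close, and the order is a description.

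**Figure D5:**
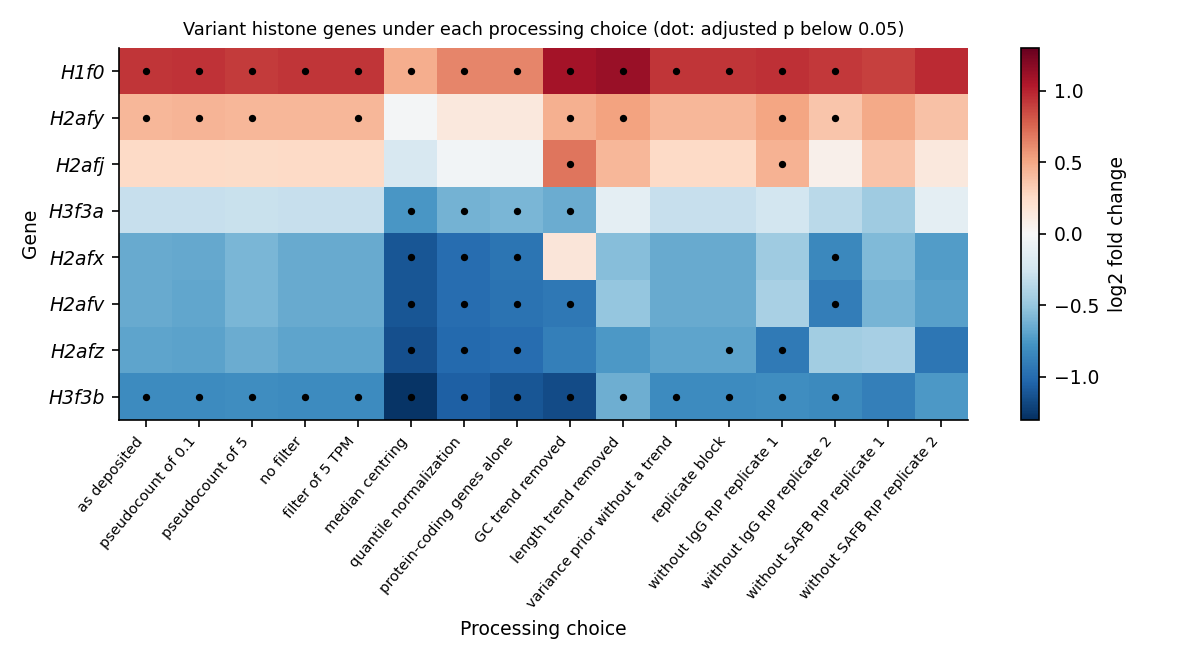
Log2 fold change (colour scale) of the 8 tested variant genes (rows) as deposited and under each of 15 other processing choices (columns), with a dot where the adjusted p is below 0.05. H1f0 is above 0 in 15 of 15 of these choices and H3f3b in 0 of 15, while H2afx, H2afy and H2afj change sign in at least 1.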

How the data were processed

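The authors deposited 1 table of TPM values for 4 RIP-seq libraries. Without giving roles, the submitters' processing notes list StringTie, HTSeq, HISAT2, DESeq2 and mm10. Which of these made the TPM values, with what annotation and strand setting, is not given in the sources used here. The table held 52197 entries, and 14 that shared an identifier were summed. Of 52189 identifiers, 52042 were found in GENCODE release M21 (mm10), the source of coordinates and sequences. The 16647 genes that reached 1 TPM in 2 or more libraries were tested on log2(TPM + 1), which understates changes of low genes, with limma 3.58.1 in R 4.3.3, a variance trend and Benjamini-Hochberg adjustment over all genes, at a threshold of 0.05. The procedure was tested on simulated data. TPM keeps no depth, so no counting interval is given.

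The members and lists were chosen with earlier results of these data known. The text names all members, up to 4 genes of highest mean level in each list, genes called against the majority of their list, Safb, and the 3 nearest to the most abundant member; Hist1h3e and Hist1h4h were added after their values were seen. In all, 15 alternatives were run: pseudocount, filter, scaling, GC and length trends, variance prior, replicate block and leaving out each library. The input aliquot in the labels' protocol was not analysed here.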

Additional observations from a re-analysis of the deposited data

How the results depend on the processing

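The counts of genes called follow the scaling. As deposited, 4964 genes were higher and 1382 lower. Median centring gave 2736 and 2935, quantile normalization 2758 and 2986, and protein-coding genes alone 2600 and 2322, and with the GC trend removed 765 were lower. Variant histone genes (2 higher and 1 lower as deposited) came to 1 higher and 5 lower under each of those 3 scalings, and 3 were lower with the GC trend removed. With no filter and with a variance prior without a trend 1 was higher. Of replication-dependent genes (5 higher, 13 lower), 1 was higher and 22 lower after median centring, 3 and 22 after quantile normalization, and 3 and 20 with protein-coding genes alone. In addition, 3 were higher with a pseudocount of 0.1, with no filter and without a variance trend, 16 with the GC trend removed, and 25 were lower with the length trend removed. Over all genes, 4250 were higher and 1244 lower with a pseudocount of 0.1, and 4371 and 946 without a variance trend. With no filter, over a larger set of genes, the counts were 4460 and 1038. With the GC trend removed 4641 genes were higher, and with the length trend removed 4647 were higher and 1120 lower. Of the 39 chaperone, deposition and processing genes tested, 2 were lower as deposited, 4 under each of the 3 scalings, 1 with a pseudocount of 0.1 or no filter, and 0 in limma with the length trend removed or without a variance trend (1 and 2 at an unadjusted p under 0.05).

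Leaving out 1 library gave 767 to 7627 genes higher and 7 to 2566 lower. Variant genes ran from 0 to 3 in each direction, replication-dependent genes from 0 to 13 higher and 1 to 26 lower, and chaperone, deposition and processing genes from 1 to 22 higher and 0 to 7 lower. The lowest counts over all genes came without SAFB RIP replicate 1 or 2, where the spread rests on the IgG libraries alone; the lone library is assumed to vary like the other group. The median absolute log2 difference was 0.37 between the IgG libraries and 0.17 between the SAFB libraries.

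Equal replicate numbers are not said to mark a shared lysate, and deviations of same-numbered libraries correlated at -0.02 across genes, so the main comparison has no block. With a replicate block 1 variant gene was higher and 2 were lower, and 1 chaperone, deposition or processing gene was lower. Over all genes 4797 were then higher and 1264 lower.

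Some directions reversed. After median centring H2afy stood at -0.024, H2afj at -0.20, Hira at -0.36, Ep400 at -0.094 and Lsm10 at -0.16. After quantile normalization H2afj stood at -0.039, Hira at -0.22 and Lsm10 at -0.29, and with protein-coding genes alone H2afj at -0.043 and Hira at -0.20. With the GC trend removed H2afx stood at 0.16, Hist2h2bb at 0.32, Hist1h4n at 0.10, Cabin1 at 0.38 and Ruvbl2 at 0.070. With the length trend removed Hist2h2ac stood at -0.0084. Without 1 library Hist2h2bb ran from -0.49 without IgG RIP replicate 2 to 0.070 without IgG RIP replicate 1. The cause was not tested. Across the alternatives H1f0 ran from 0.47 to 1.12 and H3f3b from -1.28 to -0.63, each passing in 13 of 15. Neither passed without SAFB RIP replicate 1 or without SAFB RIP replicate 2.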

Other observations

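H2afx and H2afj, both H2A genes with a single-exon transcript, form a pair that was not among those chosen for comparison and was looked at afterwards. The ratio of H2afj to H2afx TPM was 2.66 and 2.67 in the IgG libraries and 4.91 and 5.21 in the SAFB libraries. H2afj took 72.7% of the pair in each IgG library, and 83.1% and 83.9% in the SAFB libraries. Their GC content differs, at 54.6% in H2afj and 62.3% in H2afx, and the part of this difference in the ratio was not tested.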
